A study of Mus musculus with 5 samples.

Results

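Regulatory T cells (Tregs) sorted from the adipose tissue of obese mice were compared with Tregs sorted from the adipose tissue of mice whose labels name no obesity, which are called lean here. Both libraries came from 4-month C57BL/6 mice of the genotype Foxp3Cre, in which Cre recombinase is driven by Foxp3, so the comparison holds no wild-type animal. The title of the obese library contains HFD, a common abbreviation of high-fat diet. The length of feeding, the body weights, the number of mice pooled and the sorting gate are not stated in the sources used here. The comparison takes 2 of the 5 libraries of the series, 1 on each side. Its members are the 14804 genes listed at 1 scaled count or more in either library, of 49927 gene IDs in the deposited tables. Tregs of lymph nodes (LN) from 4-month Foxp3Cre mice and adipose Tregs from 10-month Foxp3Cre mice, also 1 library each, serve as reference levels.

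Tregs are CD4+ T cells that restrain immune responses, and they depend on the transcription factor Foxp3. Those of visceral fat carry the interleukin (IL)-33 receptor ST2, encoded by Il1rl1, the nuclear receptor Pparg and a set of lipid-handling and effector genes. They accumulate in the fat of lean mice with age and are known to become scarcer in obesity, while macrophages gather in the tissue. The comparison asks how the transcriptome of the Tregs sorted from fat differs when the host is obese.

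Values are the authors' scaled read counts, in which 1 read is worth 0.111 in the lean and 0.124 in the obese library after both were put on the lean scale. Values under 1 are listed as 0. A log2 ratio is log2((obese + 1)/(lean + 1)), and a gene was counted as higher or lower where this ratio reached 2-fold. A fold of a single gene is the obese over the lean value, or its inverse, with no 1 added, and the range in parentheses after a fold is its 95% counting interval. It covers counting error only. No group had a replicate, so the spread between mice is unknown and no difference was tested. In these bulk libraries fewer cells of a type and less RNA per cell cannot be told apart.

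The reads behind the listed values numbered 8540594 in the lean and 7496496 in the obese library, against 9694474 in LN and 9650769 in 10-month adipose Tregs. The 10 most abundant genes took 7.88% of them in the lean and 7.51% in the obese library. The obese library had 13415 genes at 1 or more and the lean library 11411. The obese and lean libraries both had Ddx3y, a Y-linked gene, at 524 and 532 and Xist at 3.36 and 0. In the LN and 10-month libraries Ddx3y was listed at 0 and Xist stood at 239 and 489. The LN library thus differed from the lean and obese libraries in tissue and in these sex-linked genes, which cannot be told apart here. Gapdh was nearly missing from both, at 9.95 and 1.002, against 1028 in LN, and such near-zero values of genes with close copies are uncertain.

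The cells sorted from fat expressed the defining genes of T cells and Tregs on both sides. The T cell receptor subunit gene Cd3e had 135 scaled counts in the lean and 149 in the obese library, and the receptor alpha constant gene Trac had 401 and 578. The coreceptor gene Cd4 had 96.1 and 184, Foxp3 had 206 and 168, and Ikzf2, which encodes the Treg transcription factor Helios, had 2556 and 3707. These 5 lay within 2-fold of each other between the libraries. The Treg marker gene Ctla4 did so too, at 672 and 827. The Treg marker gene Il2ra did not, at 1446 in lean and 286 in obese, which is 5.05-fold lower in obese. Defining markers of other cells were present as well. The macrophage gene Adgre1, which encodes F4/80, had 13.03 in lean and 117 in obese, the fibroblast gene Pdgfra 11.1 and 0, and the red cell gene Hba-a1 295 and 492. Of the other markers, Ms4a1 of B cells, Ncr1 of NK cells, Msln and Upk3b of mesothelium, Cdh5 and Kdr of endothelium, Plin1 of adipocytes and Ly6g and Csf3r of neutrophils were listed at 0 in both. Low levels of other genes of these cells were present. Cd79a of B cells had 3.34 and 2.99, Cd79b 0 and 21.02, Adipoq of adipocytes 0 and 1.74 and Vwf of endothelium 0 and 8.34. Others were lower in obese, with Mzb1 at 12.03 and 0, Cd22 at 7.35 and 1.24 and Ebf1 at 6.91 and 1.24. Egfl7 of endothelium had 10.6 and 2.11. Of 14 measured B cell and plasma cell genes 5 were higher (35.7%, against 32.5% of all genes) and 4 lower (28.6%, against 18.9%). Of 4 endothelial genes 2 were higher and 1 lower. The immunoglobulin gene Ighm had 207 and 265, Igkc 85.1 and 240, the adhesion gene Pecam1, which leukocytes share, 53.5 and 75.5, and the keratin gene Krt18 19.5 and 11.3.

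In obese adipose Tregs 4809 of all measured genes reached 2-fold upward, which is 32.5%, and 2795 reached it downward, which is 18.9%. The median log2 ratio was 0.17. These shares fell steeply with the level of the gene. Of the 4708 genes with a mean under 5 over both libraries, 60.5% were higher and 21.6% lower. At a mean of 20 or more stood 6306 genes, of which 763 were higher (12.1%) and 768 lower (12.2%), with a median of -0.06. The 1941 genes at a mean of at least 100 held 106 higher and 90 lower ones. The excess of higher calls thus lay in genes near the limit of listing, so each list below is read against these shares, both over its measured members and over those at a mean of 20 and above.

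**Figure D1:**
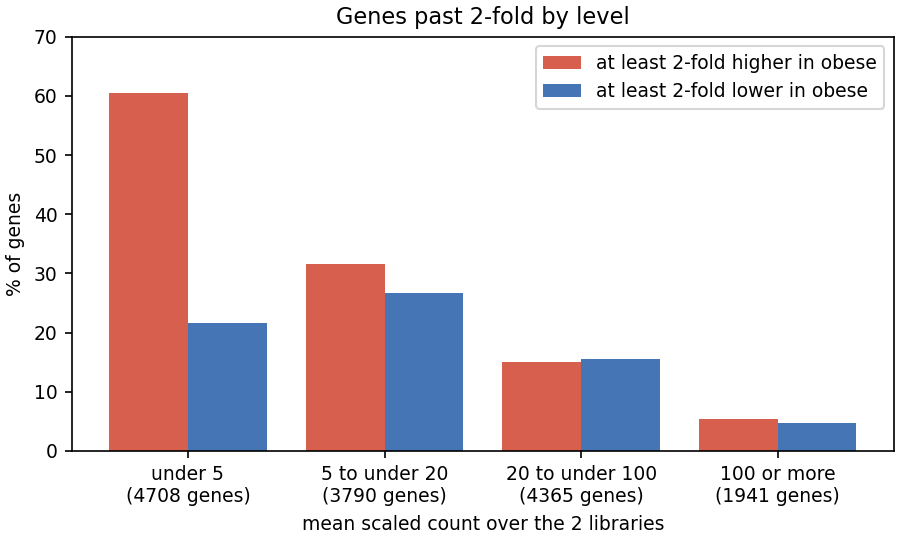
Share of genes at least 2-fold higher (red) or lower (blue) in obese than in lean adipose Tregs, in % of genes on the vertical axis, for 4 ranges of the mean scaled count over the 2 libraries. Genes of a mean under 5 were 60.5% higher against 21.6% lower, while above a mean of 20 the bars of both directions were of nearly equal height.

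The list of adipose Treg signature genes leaned lower in the obese library. Of its 37 measured members, 13 were at least 2-fold lower (35.1%, against 18.9% of all genes) and 3 higher (8.11%, against 32.5%). The median log2 ratio was -0.63 against 0.17 over all genes. Among the 34 members at a mean of 20 and above 11 were lower and 2 higher, where 12.2% and 12.1% of all genes were. The summed level of the list was 30284 scaled counts in lean, 21440 in obese and 7060 in LN Tregs, so it remained above LN. Il1rl1 (ENSMUSG00000026069) had 2745 in lean, 958 in obese and 48.8 in LN, which made it 2.86-fold lower in obese (2.79 to 2.94). Irf4, a transcription factor that drives effector Treg differentiation, had 272 in lean, 49.8 in obese and 7.80 in LN, a level 5.46-fold lower in obese (4.91 to 6.08). Gzmb, which encodes the cytotoxic protease granzyme B, had 168 in lean, 33.8 in obese and 18.3 in LN.

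The other lower members ranged across receptors, secreted factors and transcription factors. Klrg1, an inhibitory receptor of terminally differentiated cells, had 435 in lean, 159 in obese and 86.6 in LN. Ccr2, a receptor for monocyte-attracting chemokines, had 556 and 229, and Areg, which encodes the tissue repair factor amphiregulin, had 1224 and 567. Batf, the partner of Irf4 at many enhancers, had 220 and 102 against 188 in LN, so its obese value lay below the LN value. Rora, a nuclear receptor gene, had 2014 and 986. Homer2 had 14.7 in lean and was listed at 0 in obese.

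Several hallmark genes stayed under 2-fold. Il10, which encodes the suppressive cytokine IL-10, had 1007 in lean and 547 in obese, Gata3 had 486 and 271, and Pparg 40.0 and 29.4. Dgat1, an enzyme of triglyceride synthesis, had 4389 and 2233, while Tnfrsf4 (OX40) had 3085 and 3216 and Ctla4, an inhibitory receptor gene, 672 and 827. The 3 members at least 2-fold higher were Cd36, Hpgd and Dgat2, the last of them picked out after its value was seen. Cd36, a fatty acid transporter that macrophages and adipocytes also carry, had 47.8 in lean, 338 in obese and 0 in LN. Hpgd, which inactivates prostaglandin E2, was listed at 0 in lean and had 25.3 in obese, and Dgat2 had 28.4 and 63.4.

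Without the signature members that are also on a list of another cell type, 12 of 33 were lower and 2 higher, with a median of -0.71. Over the 28 members above 0 in LN, 10 were lower and none higher. The macrophage list described below was higher in the same library, and its part in the signature result was not tested.

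**Figure D2:**
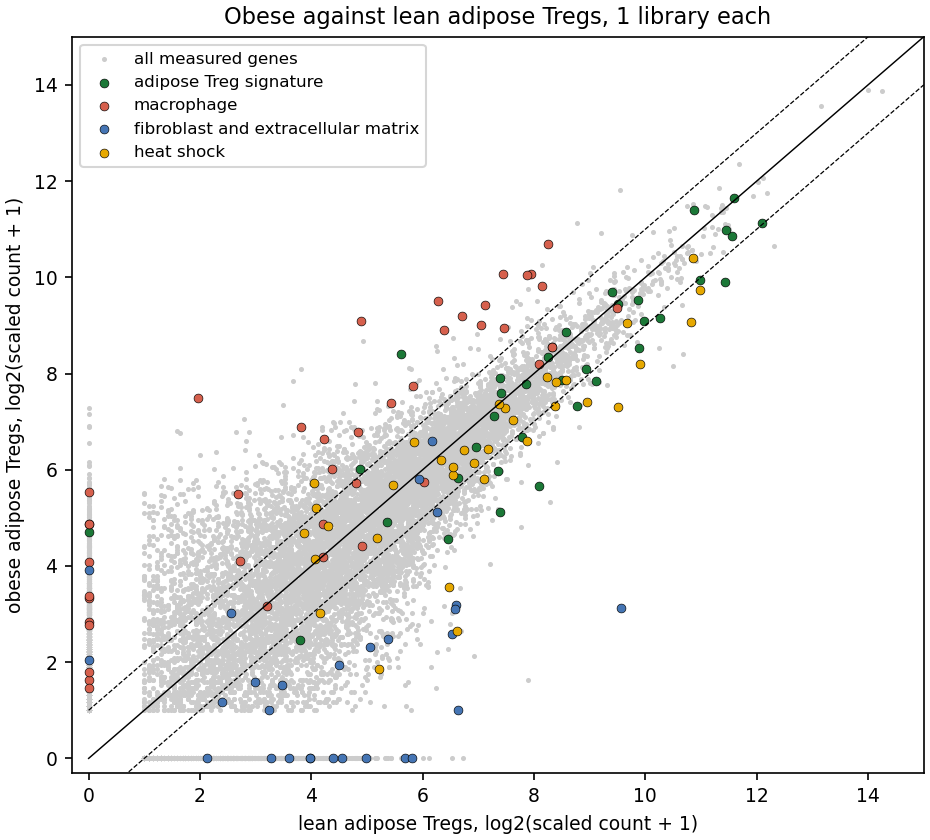
Scaled counts of all measured genes in lean (horizontal) and obese (vertical) adipose Tregs, each as log2(value + 1), with 4 gene lists in colour. The solid line marks equal values and the dashed lines 2-fold. Most signature genes (green) lie below the line, with Cd36, Hpgd and Dgat2 beyond 2-fold above it, macrophage genes (red) mostly lie above it, and fibroblast and matrix genes (blue) mostly lie below it, many of them on the lower axis where the obese value is listed at 0.

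Core Treg genes did not share that direction. Of 25 measured members, 9 were higher (36%, near the 32.5% of all genes) and 2 lower (8%, against 18.9%), with a median of 0.25. At a mean of 20 and above 5 of 20 were higher and 2 lower, where 12.1% and 12.2% of all genes were. The median there was -0.03. The lower members were Il2ra and Socs2, the second chosen after its value was seen. Il2ra, which encodes the high-affinity chain of the IL-2 receptor, had 1446 in lean, 286 in obese and 306 in LN, a level 5.05-fold lower in obese (4.83 to 5.29). The obese value thus lay next to that of LN Tregs. Socs2, a suppressor of cytokine signalling, had 398 and 169. Among the higher members, Entpd1, which encodes the ATP-degrading ectoenzyme CD39, had 7.80 in lean, 69.4 in obese and 50.7 in LN. The tetraspanin gene Cd81 had 13.03, 72.5 and 311, and the integrin gene Itgae (CD103) was listed at 0 in lean and had 29.7 in obese and 186 in LN.

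Genes of naive and lymphoid T cells were more often higher than lower. Of 25 measured members 10 were higher (40%, against 32.5% of all genes) and 1 lower (median 0.86), and of the 21 at a mean of 20 and above 6 were higher and 1 lower. Ms4a4b had 533 in lean, 1195 in obese and 4034 in LN, and Ccr7, the chemokine receptor for entry into lymph nodes, 82.0, 176 and 155. The obese value of Ms4a4b lay between lean and LN, and that of Ccr7 lay above both. The lower member, Ly6c1, was named after its value was seen and had 125 in lean and 32.5 in obese.

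Most genes of proximal T cell receptor signalling stayed within 2-fold. Of 35 measured members 6 were at least 2-fold higher (17.1%, under the 32.5% of all genes) and none lower, with a median of 0.35. The same 6 stood among the 34 members at a mean of 20 and above, where 12.1% of all genes were higher. Cd247, the signalling zeta chain of the receptor, had 17.4 in lean, 117 in obese and 160 in LN, a level 6.76-fold higher in obese (5.70 to 8.06). Themis, which tunes receptor signalling, had 20.05, 127 and 34.3, Prkcq 25.5, 76.4 and 134, and Plcg1 39.0, 107 and 67.9. The obese value of Themis thus exceeded both other libraries. Ptprc, the pan-leukocyte phosphatase CD45, had 2630 in lean and 2788 in obese. Immediate early genes, which follow receptor stimulation, had 3 of 33 higher (Dusp6, Egr2 and Dusp1) and 5 lower (Rgs16, Myc, Ier3, Nr4a1 and Cd69). Of these Dusp1, Ier3, Nr4a1 and Cd69 were named after their values were seen. Both shares, 9.09% and 15.2%, were under the 32.5% and 18.9% of all genes. Of the 30 at a mean of 20 and above 1 was higher and 5 lower, where 12.1% and 12.2% of all genes were. Myc, a driver of growth, had 180 in lean and 54.6 in obese and Rgs16 93.7 and 19.2. NF-kB pathway genes had 2 of 28 higher (Tnip3 and Tnip2) and 3 lower (Bcl3, Nfkbib and, named after its value was seen, Rela). Their shares, 7.14% and 10.7%, were also under those of all genes, and the median was -0.32. The counts were the same over the 26 at a mean of 20 and above, where 12.1% of all genes were higher and 12.2% lower.

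**Figure D3:**
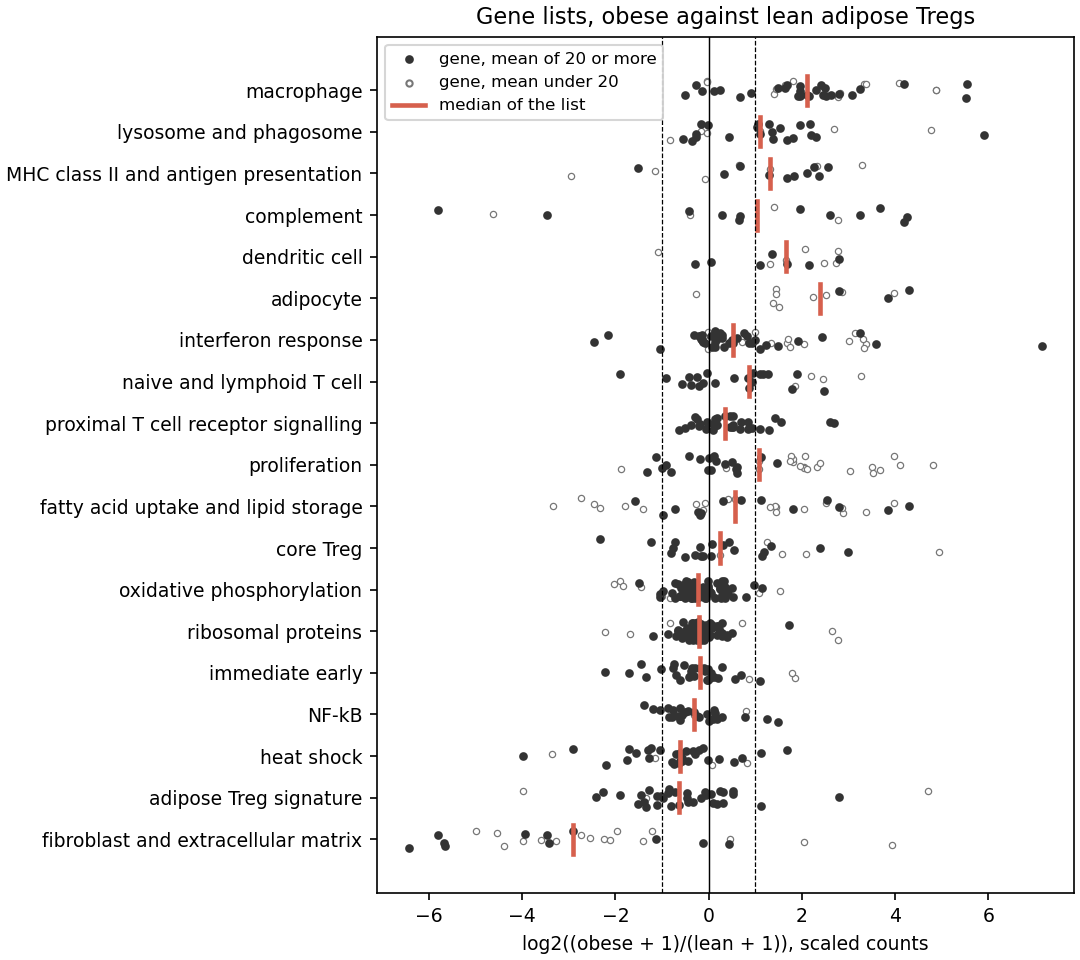
Log2 ratio of obese over lean adipose Tregs for the measured members of 19 gene lists, 1 point per gene, filled where the mean scaled count is 20 or more and open where it is lower. Red bars mark the median of each list and dashed lines 2-fold in either direction. The macrophage median lies at 2.11, that of the adipose Treg signature at -0.63 and that of fibroblast and matrix genes at -2.90, while the ribosomal and oxidative phosphorylation lists lie close to 0.

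Single receptors for chemokines and cytokines went in both directions. Of 18 chemokine receptor genes 5 were higher (27.8%, against 32.5% of all genes) and 4 lower (22.2%, against 18.9%). Of 29 cytokine receptor genes 4 were higher (13.8%) and 6 lower (20.7%). Ccr4, a receptor of type 2 helper cells and skin-homing Tregs, had 88.8 in lean and 24.3 in obese, 3.66-fold lower (3.13 to 4.30). Cxcr3, the receptor of type 1 helper cells, had 29.2 in lean, 112 in obese and 111 in LN, 3.85-fold higher (3.35 to 4.43). Tbx21, which encodes the type 1 regulator T-bet, had 1.11 in lean and 11.2 in obese, and Bcl6, the follicular regulator, had 6.79 and 40.7. Cxcr5, the follicular homing receptor, was listed at 0 in lean and LN and had 8.71 in obese. Of 23 checkpoint and costimulatory receptor genes 5 were higher (21.7%, under the 32.5% of all genes) and 2 lower (8.70%, under 18.9%). The higher were Havcr2, Slamf6, Tnfrsf1b and, named after their values were seen, Tnfrsf1a and Cd96, and the lower were Klrg1 and Cd69. Slamf6 had 93.8 in lean, 318 in obese and 639 in LN. Tnfrsf1b, which encodes TNF receptor 2, had 94.5, 240 and 73.7. At a mean of 20 and above 3 of 21 checkpoint and costimulatory genes were higher and 2 lower. Of all genes at that level 12.1% were higher and 12.2% lower. The obese value of Cxcr3 lay next to that of LN, and the obese value of Slamf6 lay between lean and LN.

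Cytokine genes also moved apart. Il1b, an inflammatory cytokine gene of myeloid cells, had 29.5 in lean, 407 in obese and 0 in LN, 13.8-fold higher in obese (12.2 to 15.7). Tnf had 21.1 and 74.8. Il6 had 313 in lean and 39.2 in obese, 7.98-fold lower (7.10 to 8.999), and Csf1, the macrophage growth factor gene, had 58.4 and 4.60, 12.7-fold lower (9.08 to 18.2). Ifng, the type 1 effector cytokine gene, was close on both sides at 112 and 128. Il17a had 14.4 in lean and was listed at 0 in obese. Of the 19 measured helper T cell cytokine genes 7 were higher (36.8%, near the 32.5% of all genes) and 7 lower (36.8%, above the 18.9% of all genes). At a mean of 20 and above 4 of 13 were higher and 4 lower, where 12.1% and 12.2% of all genes were.

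Genes of macrophages were mostly higher in the obese library. Of 41 measured macrophage genes 32 were at least 2-fold higher (78.0%, against 32.5% of all genes) and none lower, with a median of 2.11, and 21 of the 28 at a mean of 20 and above were higher. Their summed level was 3641 scaled counts in lean, 12446 in obese and 908 in LN. The lysozyme gene Lyz2 had 304 in lean, 1664 in obese and 7.36 in LN, 5.47-fold higher in obese (5.25 to 5.70). Csf1r, the receptor for the macrophage growth factor, had 17.8, 98.8 and 0. Fcgr3, an immunoglobulin receptor gene, had 2.90 in lean, 178 in obese and 0 in LN, 61.4-fold higher in obese (41.7 to 94.3). Stab1, Fcgr1 and Mertk, receptors for debris, antibodies and dying cells, were listed at 0 in lean and had 45.7, 28.5 and 28.2 in obese. Of the 41 macrophage genes 30 were listed at 0 in LN, so the LN library gives little background for them.

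Of the 41 macrophage genes 11 were listed at 0 in the lean library, and the others were present in it at lower or similar levels. Apoe, which encodes a lipoprotein made by macrophages, had 247 in lean and 1068 in obese, 4.33-fold higher (4.13 to 4.54). The chemokine gene Ccl8 had 174 and 1069, and the chemokine gene Ccl4 590 and 1936. Cxcl16, the ligand of Cxcr6, had 2.005 in lean and 111 in obese, while Cxcr6 itself had 628 and 350. Of 30 measured chemokine genes 10 were higher (33.3%, near the 32.5% of all genes) and 8 lower (26.7%, against 18.9%). At a mean of 20 and above 7 of 17 were higher and 2 lower, where 12.1% and 12.2% of all genes were. Among the lower, Ccl11, which attracts eosinophils, had 30.6 and 0, and Ccl17, a ligand of Ccr4, had 12.6 and 0.

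Lysosomal genes were mostly higher in the same library. Of 27 lysosome and phagosome genes 17 were higher (63.0%, against 32.5% of all genes) and none lower (median 1.11). Over the 21 at a mean of 20 and above 14 were higher and none lower, where 12.1% of all genes were higher. Without members of lists of other cell types 16 of 24 were higher. The protease genes Ctsb and Ctsc had 138 and 92.0 in lean and 684 and 428 in obese, 4.97-fold (4.67 to 5.29) and 4.65-fold higher (4.31 to 5.02). Of 16 complement genes 8 were higher (50%, against 32.5% of all genes) and 3 lower (18.75%, near 18.9%), with a median of 1.04. Over the 12 at a mean of 20 and above 6 were higher and 2 lower, where 12.1% and 12.2% of all genes were. Without members of lists of other cell types 4 of 10 complement genes were higher and 1 lower (median 0.67). The complement starter genes C1qb and C1qc, products of macrophages, had 76.4 and 28.6 in lean and 732 and 541 in obese, 9.58-fold (8.85 to 10.4) and 18.9-fold higher (16.7 to 21.5). The anaphylatoxin receptor gene C3ar1 had 5.90 and 131. The 3 complement genes at least 2-fold lower were Serping1 and C1s1, each listed at 0 in obese after 54.7 and 23.8 in lean, and C3, picked out after its value was seen, at 94.3 and 7.59.

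Genes of antigen presentation were higher as well. Of 17 genes of the MHC class II pathway 10 were higher (58.8%, against 32.5% of all genes) and 3 lower (17.6%, near 18.9%). The median was 1.31, and the lower genes were Rfxank and, named after their values were seen, Rfxap and H2-DMb2. Of the 10 at a mean of 20 and above 7 were higher and 1 lower, where 12.1% and 12.2% of all genes were. H2-Aa, a chain of the class II molecule, had 434 in lean, 2253 in obese and 48.6 in LN, 5.20-fold higher in obese (5.02 to 5.38). Cd74, its chaperone, had 745, 3599 and 327, and H2-DMa, which loads its peptides, 20.2, 124 and 82.5. Of 14 dendritic cell genes 11 were higher (78.6%, against 32.5% of all genes) and 1 lower (7.14%, against 18.9%). The lower one was Xcr1, named after its value was seen. Of the 7 at a mean of 20 and above 5 were higher and none lower, where 12.1% and 12.2% of all genes were. The activation marker Cd83 had 215 in lean and 693 in obese. The dendritic cell marker genes Zbtb46 and Flt3 had 4.90 and 0 in lean and 23.8 and 1.49 in obese, so they were low in both.

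The opposite held for stromal genes. Of 27 measured fibroblast and extracellular matrix genes 22 were at least 2-fold lower in obese (81.5%, against 18.9% of all genes). A further 2 were higher (7.41%, against 32.5%), and the median was -2.90. Of the 11 at a mean of 20 and above 9 were lower and none higher, where 12.2% and 12.1% of all genes were. The summed level of the list was 1684 in lean, 256 in obese and 367 in LN. In LN 22 of the 27 genes were listed at 0, so the LN sum came from 5 genes. Dcn (ENSMUSG00000019929), which encodes the collagen-binding proteoglycan decorin, had 752 in lean, 7.71 in obese and 0 in LN, 97.6-fold lower in obese (76.0 to 127). Col3a1, a fibrillar collagen gene, had 98.8 and 0.995, 99.3-fold lower (50.2 to 231), and Col4a2, a basement membrane collagen gene, had 50.5 and 0. The 2 higher members were Timp1, at 0 and 14.2, and Fbln1, at 0 and 3.11, both picked out after their values were seen. Thy1, which T cells share, had 60.1 and 55.0 and was likewise chosen afterwards.

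The genes with the lowest ratios of all were largely of the same kind. The 15 lowest held, beside Dcn, Col3a1, Col4a2 and Serping1, the genes of matrix and secreted proteins Nid1, Bmper, Col6a5, Ccdc80 and Ccn1, each between 42.3 and 63.5 in lean and listed at 0 in obese. The inflammatory pattern recognition gene Ptx3 had 105 and 0, and Sult1e1, which sulfates estrogens, had 237 in lean and 2.11 in obese, 112-fold lower (69.8 to 193). C7, a terminal complement component, had 53.2 and 0. Of the 15 lowest genes 14 were listed at 0 in LN, and the exception, Tmem159, had 23.8 there.

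Adipocyte genes were higher in obese but mostly close to the limit of listing. Of 12 measured members 11 were at least 2-fold higher (91.7%, against 32.5% of all genes) and none lower (median 2.38). Only 3, however, had a mean of 20 or more. Those 3, all higher, were Fabp4, Lpl and Cd36, which macrophages also express. Fabp4, a fatty acid binding protein, had 13.03 in lean and 274 in obese, 21.0-fold higher (17.4 to 25.5), and lipoprotein lipase, Lpl, had 10.2 and 161. The adipocyte hormone gene Adipoq was listed at 0 in lean and had 1.74 in obese, and Lep and Plin1 were listed at 0 in both. The lipases Pnpla2 and Lipe were listed at 0 in lean and had 14.8 and 6.22 in obese.

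Lipid metabolism as a whole did not share 1 direction. Of 35 genes of fatty acid uptake and lipid storage 16 were higher (45.7%, against 32.5% of all genes) and 7 lower (20%, near 18.9%). Of the 14 at a mean of 20 and above 6 were higher and 1 lower, where 12.1% and 12.2% of all genes were. Leaving out members that also stand on a list of another cell type, 9 of 27 were higher and 7 lower, and the median went from 0.57 to -0.08. Hilpda, a lipid droplet protein gene induced by hypoxia, was among the most abundant at 1567 in lean and 956 in obese. Of 14 fatty acid synthesis genes 4 were higher (Acacb, Fads1, Acaca and Acss2) and 4 lower (Me1, Scd1, Srebf1 and Fasn), which is 28.6% each. Of these Fads1, Acaca, Acss2 and Fasn were named after their values were seen. Of the 7 synthesis genes at a mean of 20 and above 1 was higher and 2 lower. Scd1 and Srebf1, a desaturase and the regulator of lipogenesis, had 34.98 and 49.6 in lean and 4.73 and 9.33 in obese. Of 29 fatty acid oxidation genes 9 were higher (31.0%) and 5 lower (17.2%), both near the shares of all genes. The 5 were Ppargc1b, Decr1, Acads, Acadm and Acad9, named after their values were seen. Of the 13 oxidation genes at a mean of 20 and above 1 was higher and 1 lower. Irs2, an adaptor of insulin signalling, had 450 in lean, 161 in obese and 0 in LN, 2.80-fold lower (2.63 to 2.98), and the insulin receptor gene Insr had 87.1 and 61.6.

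Interferon response genes held few lower members, while over all measured members their share of higher ones was near that of all genes. Of 55 measured members 19 were at least 2-fold higher (34.5%, against 32.5% of all genes) and 3 lower (5.45%, against 18.9%), with a median of 0.53. Among the 39 at a mean of 20 and above 9 were higher and 3 lower, where 12.1% and 12.2% of all genes were. Their median was 0.28, and their share of higher members was above that of all genes. These genes are switched on by interferons through transcription factors such as Irf9 that bind the interferon-stimulated response element. Rsad2, which encodes the antiviral enzyme viperin, was listed at 0 in lean and LN and had 141 in obese. Ifit1, which binds foreign RNA, had 6.01 in lean, 84.0 in obese and 21.7 in LN. The 3 lower members, named after their values were seen, were Ifi205 (65.7 and 11.2), Irf8 (85.5 and 18.5) and Ifit2 (46.1 and 22.02). Abundant members such as Ly6e, at 1581 and 1388, and Ifi27l2a, at 824 and 1010, were close on both sides. The macrophage list was higher in the same library, with a sum of 12446 against 3641, and its part in this result was not tested.

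The promoters of the interferon genes carry the element often. RefSeq promoter windows of the GRCm38.p6 build, 250 bases before to 50 after the start, were matched by symbol for 40 of the 55 members. The core GAAANNGAAA, searched on both strands, was in 22 of them (55.0%), against 3.99% of the 27025 genes with a window. Of the members with it 9 were higher and 1 lower, and of the 18 without it 6 were higher and 2 lower. Stretches of 120 bases before the start are shown for the members with the largest ratios among those that hold the core there, in gene direction and with the core in capitals (written as its reverse complement where it lies on the other strand). Rsad2 is from chr12:26456513-26456632 on the minus strand and Ifit1, with 2 copies, from chr19:34640744-34640863 on the plus strand.
Rsad2: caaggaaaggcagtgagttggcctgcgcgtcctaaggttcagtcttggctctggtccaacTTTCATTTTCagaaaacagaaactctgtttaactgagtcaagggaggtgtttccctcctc
Ifit1: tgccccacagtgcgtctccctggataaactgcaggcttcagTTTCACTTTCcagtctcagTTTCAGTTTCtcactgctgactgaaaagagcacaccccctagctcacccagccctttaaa

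Heat shock genes, which encode chaperones induced by heat and misfolded protein, leaned lower. Of 34 measured members 12 were at least 2-fold lower (35.3%, against 18.9% of all genes) and 2 higher (5.88%, against 32.5%). The median was -0.61. Of the 30 at a mean of 20 and above 10 were lower and 2 higher, where 12.2% and 12.1% of all genes were. The summed level of the list was 11995 in lean, 6146 in obese and 4592 in LN. Hspb1, a small heat shock protein gene, had 97.1 in lean, 5.22 in obese and 10.6 in LN, 18.6-fold lower (13.6 to 25.98). Hsp90aa1, the inducible Hsp90 gene, had 729, 157 and 111, and Dnaja1, a cochaperone gene, 2012, 858 and 680. For both, the obese value was closer to LN than to lean. Hspa8, the constitutive Hsp70 gene, had 1843 in lean and 1356 in obese. The 2 higher members, named after their values were seen, were Ahsa1 (15.9 and 36.0) and Dnajb9 (15.5 and 52.2).

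A heat shock element of 3 units, GAANNTTCNNGAA on either strand, was in the windows of 5 of 27 matched heat shock genes (18.5%), against 0.662% of all 27025. Those 5 were Hsph1, Hspd1, Hspe1, Dnajb6 and Chordc1, of which 2 were at least 2-fold lower and none higher. Without the element 8 of 22 were lower and 2 higher. Of the 5, Hsph1, Dnajb6 and Chordc1 are named for the element alone. For the NF-kB list, the kappaB motif GGGANNTTCC on either strand was in 2 of 22 windows (9.09%), against 1.63% of all. Hspe1 and Hspd1, which encode the mitochondrial chaperonins and are transcribed in opposite directions from a shared stretch, had 380 and 195 in lean and 233 and 130 in obese. The shared stretch is shown in the direction of Hspe1, chr1:55088004-55088123 on the plus strand, with 2 overlapping matches in capitals.
Hspe1: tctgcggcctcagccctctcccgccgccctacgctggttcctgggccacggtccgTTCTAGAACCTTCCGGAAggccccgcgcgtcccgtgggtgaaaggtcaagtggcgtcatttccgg

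Proliferation genes showed how far the low range carried a list. Of 41 measured members 22 were higher (53.7%, against 32.5% of all genes) and 3 lower (7.32%, against 18.9%), with a median of 1.09. But of the 19 at a mean of 20 and above 2 were higher and 2 lower, near the 12.1% and 12.2% of all genes. The mitotic genes Ccnb2, Aurkb, Ccna2 and Ccnb1 were listed at 0 in lean and had 27.1, 16.2, 14.8 and 11.8 in obese, while LN had 120, 15.4, 41.6 and 49.4. Hmgb2 had 678 and 681, and Ccnd2, a cyclin of cell cycle entry, 573 and 327. The 3 lower members, named after their values were seen, were Bub1, Kif23 and Birc5.

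Ribosomal protein and oxidative phosphorylation genes differed little. Of 82 ribosomal protein genes 3 were higher (Rpl24, Rpl13a and Rpl7l1) and 3 lower (Rpl39l, Rpl3l and Rpl35), with a median of -0.20, and of 80 oxidative phosphorylation genes 3 were higher (Atp5s, Cox8b and Atp5c1) and 8 lower, with a median of -0.24. Of these Rpl3l, Rpl35, Cox8b and Atp5c1 were named after their values were seen. At a mean of 20 and above 1 of 76 ribosomal genes was higher and 1 lower, and 1 of 71 oxidative phosphorylation genes was higher and 3 lower. Of 13 mitochondrially encoded genes 1 was higher and none lower (median 0.42), or none of the 10 at a mean of 20 and above, with mt-Co1, a subunit of cytochrome oxidase, at 3283 in lean and 5273 in obese. Mediator complex genes were less even, and 10 of 32 were higher (31.25%, near the 32.5% of all genes), with a median of 0.37. Med21 and, named after their values were seen, Med17 and Med24 were lower (9.4%, against 18.9%). Of the 22 Mediator genes at a mean of 20 and above 2 were higher and 2 lower. Med21 had 287 in lean and 108 in obese, and Med23, the target of the floxed allele elsewhere in the series, 44.6 and 31.1.

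Some genes were listed at 0 in the lean library alone. In all, 164 genes had 20 or more in obese and were listed at 0 in lean, and 64 of them also had 20 or more in LN. The reverse held for 93 genes, of which 5 had 20 or more in LN. Among the 15 highest ratios, Tfam, Ckap5, Mplkip and Hpcal1 were of this kind. Tfam, the transcription factor of mitochondrial DNA, was listed at 0 in lean and had 67.4 in obese and 116 in LN. Ckap5, a microtubule regulator, had 0, 70.9 and 93.7. Another group of the 15 highest was listed at 0 in LN as well. Among them were the myeloid genes Ly86 (155 in obese), Clec4a3 (93.7) and Igsf6 (66.4), and also Tmem176b (119). For 105 of the 164 genes the value under 1 could be recovered from the authors' fold change against LN, and 49 of those had no reads in the lean library.

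Adipose Tregs of 10-month Foxp3Cre mice, the other adipose library without obesity or a floxed gene, allow the levels to be placed in CPM, counts scaled to a common total over the reads behind the listed values. Il1rl1 had 3497 CPM there, against 2886 CPM in lean, 1028 in obese and 46.5 in LN. Il2ra had 1413 against 1520, 307 and 291, and Irf4 had 223 against 285, 53.4 and 7.43. For these genes, and for Gata3 at 506 against 511, 291 and 41.4, the lean and 10-month libraries lay closer to each other than to obese. Pparg had 212 against 42.0, 31.5 and 0, and Klrg1 1365 against 458, 170 and 82.5. For Pparg and Klrg1 the lean value was closer to obese than to 10-month. The summed adipose Treg signature had 41238 CPM in 10-month, 31834 in lean, 22990 in obese and 6726 in LN. The summed macrophage list had 2444 CPM in the 10-month library, 3828 in lean, 13346 in obese and 865 in LN, and the MHC class II list 878, 2132, 9312 and 1394. Rsad2 had 12.7 CPM in the 10-month library and 152 in obese, and Cd36 had 5.49 and 362.

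Other lists placed the lean library apart from the rest. Summed heat shock genes had 6231 CPM in 10-month, 12609 in lean, 6590 in obese and 4375 in LN. Fibroblast and matrix genes had 257 CPM in 10-month, 1771 in lean, 275 in obese and 350 in LN, and Il6 was listed at 0 in the 10-month library, with 329 CPM in lean and 42.0 in obese. For the sums of both lists the obese library lay next to the 10-month library. Single heat shock genes varied, with Hsp90aa1 at 119 CPM in 10-month, 767 in lean and 168 in obese. Dnaja1 had 1688, 2115 and 920, so its 10-month value was closer to lean. The 10-month mice also differed from the lean and obese mice in age and in the sex-linked genes given above, which cannot be told apart here.

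**Figure D4:**
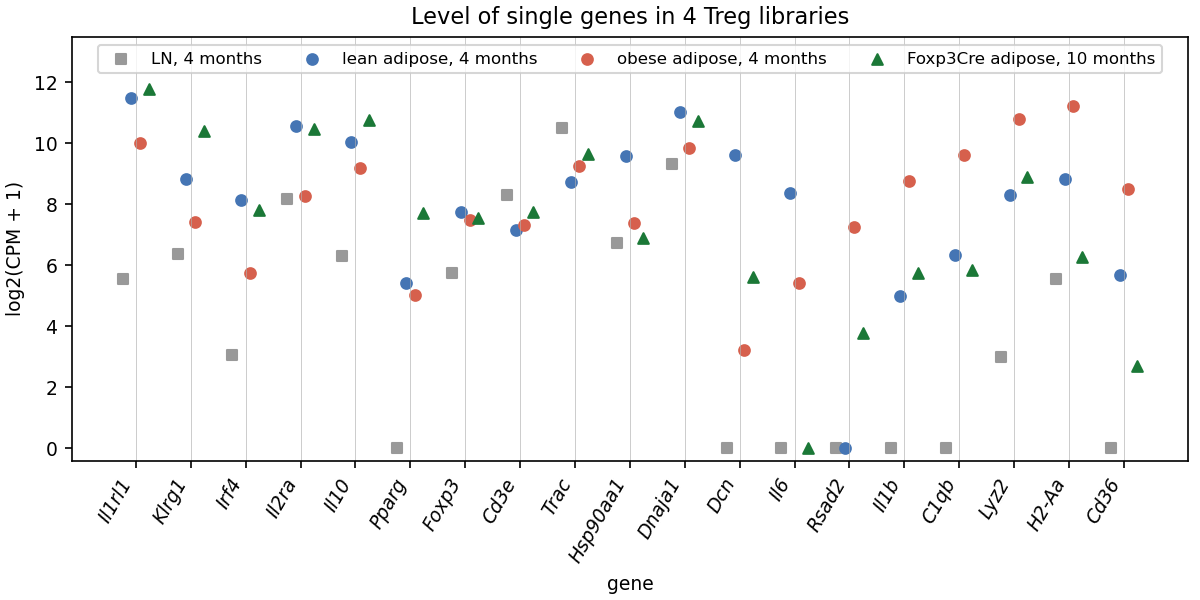
Level of 19 genes in the 4 libraries as log2(CPM + 1), with 1 symbol per library and no error bars because no group had a replicate. Il1rl1, Irf4 and Il2ra sit lower in obese (red) than in lean (blue) and 10-month (green) adipose Tregs, Dcn and Il6 are highest in lean, and Rsad2, Il1b, C1qb, H2-Aa and Cd36 are highest in obese.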

How the data were processed

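Sorted Tregs were used for RNA extraction with Trizol, Illumina TruSeq libraries and HiSeq2000 sequencing, per the labels' protocols. TopHat2 2.0.9, Bowtie2 2.0.6 and the genome build mm8 stand in the submitters' processing notes. How reads were counted and scaled, on which annotation and strand, is not stated in the sources used here. The authors deposited tables of scaled read counts (a signal per gene, whole multiples of 1 step per library, with values under 1 listed as 0), log2 fold changes, p-values and q-values. The deposited p-values and q-values compare 2 libraries and were not used, and the deposited log2 fold changes served only to recover values under 1. Reads of overlapping or antisense genes and of close copies may be split.

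The LN library stands in both 4-month tables with a constant ratio of 1.0098 over 10666 genes, and obese values were divided by it. Genes missing from a table counted as 0. Symbols were matched for 49326 of 49927 IDs. Counting intervals are exact Clopper-Pearson intervals on recovered reads. With 1 library per group there was no test. The members and the 50 gene lists were chosen with earlier results of these data known.

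Named genes were the 15 highest and the 15 lowest ratios of genes whose higher value was at least 20 (leaving out pseudogenes, predicted genes, small RNAs and receptor segments), in each list the 4 largest ratios and the 2 highest values, and a panel of 19 genes. Cell type markers were fixed apart from that rule. A few genes that these rules name are not reported here. Lists of other cells hold genes that Tregs also express. Alternatives were 3 other scalings, other pseudocounts, filters and size thresholds. Scripts ran in Python 3.11.15 (pandas 2.3.3, scipy 1.17.1, matplotlib 3.10.9, numpy 2.4.6) and were tested on simulated data.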

Additional observations from a re-analysis of the deposited data

How the results depend on the processing

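The numbers of genes at least 2-fold higher and lower, 4809 and 2795, moved by over 1.5 times under 3 planned settings. They were 2277 and 1109 at a 4-fold threshold, 2315 and 1670 with a pseudocount of 5, and 1890 and 1680 among genes at 10 or more in either library. Chosen after seeing the data, a mean of 20 or more gave 763 and 768, a mean of 100 or more 106 and 90, and a counting interval entirely past 2-fold 1169 and 1128. Under the other settings both counts stayed within 1.5 times. Centring on the median log2 ratio shifted every ratio by 0.17 and gave 4276 higher and 3216 lower, equal totals shifted ratios by 0.029 and the trimmed mean of M values by 0.068. A filter on any value above 0 keeps the same genes. The median of the T cell receptor V segments list turned from 1.04 to -0.11 at 10 or more and to -2.03 at a mean of 20 or more, where 2 members were left. That of the CD8 T, NK and innate lymphoid cell list turned from 3.20 to -0.023 at a mean of 20 or more (4 members) and to -0.088 at a mean of 100 or more (3 members). Of 50 list medians, 17 changed sign in at least 1 setting, and 7 of the 11 past 2-fold fell under it in some setting. The core Treg median reached -0.15, that of Mediator -0.18 (main values 0.25 and 0.37) and that of complement 0.67. Of 292 named genes, 221 were past 2-fold, none of these changed sign in any setting, and 25 fell under 2-fold in at least 1. The naming rule picked many of them for large ratios. Shifts of at most 0.17, other pseudocounts, filters and thresholds cannot turn the sign of a 2-fold ratio, so the unchanged signs were fixed beforehand. No paired analysis was possible because each group has 1 library. With 1 library a side, leaving out a replicate was not possible, and depth limits what can be said of genes listed at 0.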

Other observations

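Antigen receptor segments were used unevenly in the lean library. Its 2252 reads in T cell receptor alpha V segments fell on 26 segments above 0, against 45 segments for 1667 reads in obese adipose Tregs. Trav19 took 18.4% of them in lean (16.8 to 20.05, exact 95% binomial interval, counting error only) and 1.32% in obese. Among beta V segments, 14 were above 0 in lean and 19 in obese, and Trbv12-2 took 28.7% of 1154 reads in lean (26.1 to 31.4) and 13.7% of 1623 in obese (12.0 to 15.4). Reads of such segments can be split between close copies, and values under 1 are listed as 0. Of the immunoglobulin light chain segments, Igkv12-46 was listed at 0 in lean and had 117 scaled counts in obese, and Igkv14-111 had 31.2 in lean and was listed at 0 in obese, with the B cell gene Ms4a1 at 0 in both.

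Some genes of CD8 T and NK cells were listed at 0 in the lean library and stood at low levels in the obese library. Cd8a and Cd8b1 had 11.4 and 13.4 in obese, 14.8 and 17.3 in LN and 7.82 and 2.53 in 10-month adipose Tregs, and Gzmk had 24.8 in obese and was listed at 0 in lean and LN. Nkg7 and Ccl5, which activated T cells share, had 291 and 486 in lean and 274 and 501 in obese. Of 16 measured members of this list 11 were at least 2-fold higher (68.75%, against 32.5% of all genes) and 3 lower (18.75%, near 18.9%). Only 4, however, had a mean of 20 or more, of which 1 was higher and 1 lower. Ifnb1, the interferon beta gene, was listed at 0 in lean, LN and 10-month adipose Tregs and had 41.8 in obese. It was picked out after its value was seen.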
